A study of Mus musculus with 69 samples.

Results

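The H3K4me1 peak lists of wild-type haematopoietic progenitor cells (HPCs) and wild-type haematopoietic stem cells (HSCs) of untreated mice aged 8 weeks were compared. The comparison used all 111140 peaks of the HPC list and all 118083 peaks of the HSC list on chromosomes 1 to 19 and X, each list coming from 3 libraries, so 6 of the 69 samples of the series. The mice of the series carried a conditional allele of Kmt2c, which encodes the H3K4 methyltransferase MLL3. Lists of heterozygous mice (f/+ with Vav-Cre, a transgene active in blood-forming cells) and of knockout mice (f/f with Vav-Cre), 3 libraries per cell type at 8 weeks, served as further pairs that share no library with wild type. H3K27ac lists came from HPCs given PBS for 3 days (8 to 10 weeks old, 4 libraries) and from HSCs given PBS every 3 weeks for 3 doses (16 weeks old, 3 libraries), in wild type and knockout, so for that mark age and PBS schedule cannot be told apart from cell type. A wild-type HSC list of H3K4me1 at 16 weeks after PBS (4 libraries) was a last source. Per the labels the cells were sorted, fixed and profiled by ChIPmentation, in which antibody-bound chromatin is tagged with the Tn5 transposase, and the sort markers are not given there.

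HSCs are rare cells of the bone marrow that renew themselves and can rebuild all blood lineages, whereas HPCs are their short-lived, dividing descendants with a more limited choice of fates. Monomethylation of lysine 4 on histone H3 lies over enhancers, both active ones and ones held ready, and also flanks the promoters of active genes. Acetylation of lysine 27 is added at enhancers and promoters in use. Enhancers of blood cells are bound by factors such as PU.1, RUNX1, GATA2, C/EBP proteins and MEIS1, and many lineage genes carry H3K4me1 in progenitors well before they are transcribed.

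The promoter windows that lay in 1 cell type's list in every genotype are shown first, because their letters can be read without a genome. Of 21045 RefSeq windows of 300 bases (250 before to 50 after a start, GRCm38.p6), 47 were covered over at least 150 bases in HPC and over none in HSC in wild type, heterozygous and knockout alike, and 37 showed the converse. Among genes of the lists described below, 5 windows belonged to the HPC set and 2 to the HSC set, and all 7 are printed 5′ to 3′ along the gene. Capitals mark matches, on either strand, to 11 short motifs named in the promoter paragraph.
Dntt: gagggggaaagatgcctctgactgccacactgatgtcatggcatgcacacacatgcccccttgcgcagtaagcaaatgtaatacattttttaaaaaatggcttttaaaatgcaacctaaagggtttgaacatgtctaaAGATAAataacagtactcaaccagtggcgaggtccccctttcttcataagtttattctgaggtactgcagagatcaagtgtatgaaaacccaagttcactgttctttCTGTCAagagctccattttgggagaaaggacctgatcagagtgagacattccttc
Igll1: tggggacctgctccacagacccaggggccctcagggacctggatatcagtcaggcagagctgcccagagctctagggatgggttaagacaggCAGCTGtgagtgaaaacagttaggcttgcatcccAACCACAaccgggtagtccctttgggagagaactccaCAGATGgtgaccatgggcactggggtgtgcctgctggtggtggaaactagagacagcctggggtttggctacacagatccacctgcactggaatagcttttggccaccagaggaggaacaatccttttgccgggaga
Lck: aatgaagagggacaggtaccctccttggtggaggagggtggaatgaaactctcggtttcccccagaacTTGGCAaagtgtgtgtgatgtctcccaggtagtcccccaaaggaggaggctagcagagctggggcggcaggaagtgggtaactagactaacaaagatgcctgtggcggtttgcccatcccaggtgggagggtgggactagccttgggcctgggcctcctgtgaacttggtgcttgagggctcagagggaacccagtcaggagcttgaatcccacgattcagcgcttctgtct
Itgax: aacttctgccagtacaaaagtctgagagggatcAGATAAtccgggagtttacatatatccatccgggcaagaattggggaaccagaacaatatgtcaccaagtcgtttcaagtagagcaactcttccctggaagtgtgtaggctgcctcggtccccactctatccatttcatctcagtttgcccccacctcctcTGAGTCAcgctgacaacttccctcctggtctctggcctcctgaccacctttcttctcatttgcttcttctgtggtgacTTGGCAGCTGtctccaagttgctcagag
Lef1: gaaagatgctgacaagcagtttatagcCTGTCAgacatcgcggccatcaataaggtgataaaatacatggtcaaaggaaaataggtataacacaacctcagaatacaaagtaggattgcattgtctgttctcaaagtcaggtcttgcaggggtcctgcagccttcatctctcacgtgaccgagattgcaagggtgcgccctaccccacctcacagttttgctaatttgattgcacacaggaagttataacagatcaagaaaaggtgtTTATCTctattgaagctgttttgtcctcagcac
Epor: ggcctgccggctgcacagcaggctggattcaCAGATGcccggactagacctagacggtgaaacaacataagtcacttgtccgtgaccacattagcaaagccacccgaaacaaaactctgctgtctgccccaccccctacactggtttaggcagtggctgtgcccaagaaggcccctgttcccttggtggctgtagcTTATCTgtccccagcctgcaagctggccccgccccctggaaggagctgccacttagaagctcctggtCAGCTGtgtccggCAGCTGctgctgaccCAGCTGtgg
Gfi1: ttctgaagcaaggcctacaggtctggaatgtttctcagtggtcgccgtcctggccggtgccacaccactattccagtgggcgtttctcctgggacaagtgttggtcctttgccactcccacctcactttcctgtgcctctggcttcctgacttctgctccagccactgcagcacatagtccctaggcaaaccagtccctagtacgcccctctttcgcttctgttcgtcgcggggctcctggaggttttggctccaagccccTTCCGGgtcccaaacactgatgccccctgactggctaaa
The HPC windows belonged to Dntt (terminal transferase, which adds nucleotides to rearranging antigen receptor genes; plus strand, chr19:41029025-41029324), Igll1 (a surrogate light chain of the pre-B cell receptor; minus strand, chr16:16863936-16864235) and Lck (a T cell kinase; 1 of its 2 starts, minus strand, chr4:129558323-129558622). The other start of Lck was covered over 300 bases in every HPC and HSC list. They further belonged to Itgax (the integrin CD11c of dendritic cells; plus strand, chr7:128129300-128129599) and to an inner start of Lef1 (a T cell factor; plus strand, chr3:131156044-131156343), 1 of its 4 annotated starts. The HSC windows belonged to Epor (the erythropoietin receptor; minus strand, chr9:21963527-21963826) and to 1 of 2 starts of Gfi1 (a repressor needed for stem cells and neutrophils; minus strand, chr5:107724294-107724593). In wild-type HPC the list covered all 300 bases at Dntt, Lck, Itgax and Lef1 and 286 at Igll1, against none in wild-type HSC. At Epor and Gfi1 it covered none in wild-type HPC, against 300 in wild-type HSC. H3K27ac covered 300 bases in HPC and none in HSC at Dntt, Igll1 and Lck, 232 and none at Itgax, and none in either list at Lef1 and Epor. At Gfi1 both H3K27ac lists covered the whole window, so there the 2 marks did not run together.

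The HPC list covered 102.5 Mb and the HSC list 86.1 Mb, with a median peak width of 624 bases in HPC and 499 in HSC. The median −log10 p of the authors' peak caller was 10.4 in HPC and 7.97 in HSC, so the HPC list held fewer, wider and stronger peaks. Where 1 HPC peak met exactly 1 HSC peak, which was so 41014 times, the HPC peak was the wider in 65.6% of cases, with median widths of 744 and 593 bases. The lists shared 62.7 Mb, equal to 61.2% of the HPC bases and 72.9% of the HSC bases, or 49.8% of all bases covered in either. Between genotypes of the same cell type that last share was 57.2% to 63.3% (6 pairs), and between cell types of the same genotype 49.8% to 51.9% (3 pairs), so the 2 ranges did not overlap. Since the libraries of a group were deposited as 1 pooled list, spread between replicates could not be measured and nothing was tested, and the depth of the libraries is unknown. Statements below therefore compare lists, intervals are Wilson 95% intervals that cover counting error only. The gene ratios were set against the median gene, whereas counts of regions and promoter windows keep any difference in size between the lists.

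Strong peaks were mostly common to both cell types. Of the strongest 25% by −log10 p, 92.4% of HPC peaks overlapped an HSC peak by at least 1 base and 93.3% of HSC peaks overlapped an HPC peak. In the weakest 25% it was 42.0% of HPC peaks and 50.3% of HSC peaks, and the share climbed with strength in both lists. Median width climbed too and was not matched. From the weakest to the strongest 25% it went from 378 to 1491 bases in HPC and from 309 to 1131 in HSC.

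**Figure D1:**
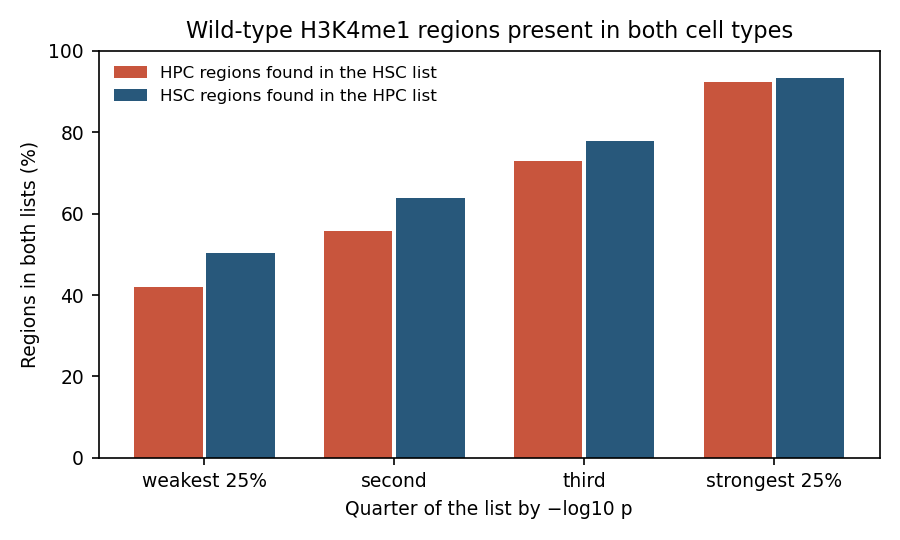
Share of wild-type H3K4me1 peaks (y axis, %) that overlap a peak of the other cell type by at least 1 base, in 4 equal parts of each list ranked on −log10 p (x axis); red bars are HPC peaks and blue bars HSC peaks. The share is 92.4% for HPC and 93.3% for HSC in the strongest part, against 42.0% for HPC and 50.3% for HSC in the weakest.

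Strong peaks without any overlap numbered 2109 in HPC (7.56% of 27884) and 1977 in HSC (6.69% of 29533). These are called HPC-exclusive and HSC-exclusive regions. The HPC share of the 2 sets together, 51.6% (interval 50.1% to 53.1%), depended on how the lists were matched: it was 57.2% with equal numbers of peaks and 19.6% with equal covered bases, so no direction is read from it.

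Many exclusive regions lay in both lists of another genotype, and those found in 1 list only were mostly in that of the same cell type. Of the HPC-exclusive regions, 47.7% lay in both lists of heterozygous mice and 51.4% in both lists of knockout mice, so the largest class was no longer exclusive. A further 43.2% lay in the HPC list only and 3.37% in the HSC list only of heterozygous mice, and 40.0% in the HPC list only and 3.46% in the HSC list only of knockout mice. Of the HSC-exclusive regions, 37.1% lay in both lists of heterozygous and 36.2% in both lists of knockout mice. A further 2.33% lay in the HPC list only and 53.8% in the HSC list only of heterozygous mice, and 1.77% and 56.5% in HPC only and HSC only of knockout mice. Regions exclusive to the same cell type in all 3 genotypes, called core regions, numbered 577 for HPC (27.4%, interval 25.5% to 29.3%) and 785 for HSC (39.7%, interval 37.6% to 41.9%). Only 11 HPC-exclusive and 6 HSC-exclusive regions lay in the opposite list alone in both other genotypes. In the 16-week wild-type HSC list, 20.9% of HPC-exclusive and 69.1% of HSC-exclusive regions were found, and 5.72% of HPC core and 74.9% of HSC core regions.

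H3K27ac followed the cell type at the regions it marked, but it marked a minority of them. In wild type, H3K27ac lay on 22.6% of HPC-exclusive regions in HPC only, on 3.75% in HSC only and on 13.8% in both. On HSC-exclusive regions it lay on 1.21% in HPC only, on 25.8% in HSC only and on 4.65% in both. No H3K27ac peak of either cell type touched 59.8% of HPC-exclusive and 68.3% of HSC-exclusive regions. For strong peaks shared by the cell types it was 26.5% in HPC and 29.8% in HSC. Shared strong peaks were also wider, with a median of 1561 bases against 782 for exclusive ones in HPC. In HSC it was 1180 against 630, and width was not matched. In knockout mice the corresponding acetylation in 1 list only was 21.9% in HPC and 2.42% in HSC at HPC-exclusive regions, and 1.37% in HPC and 18.8% in HSC at HSC-exclusive regions.

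**Figure D2:**
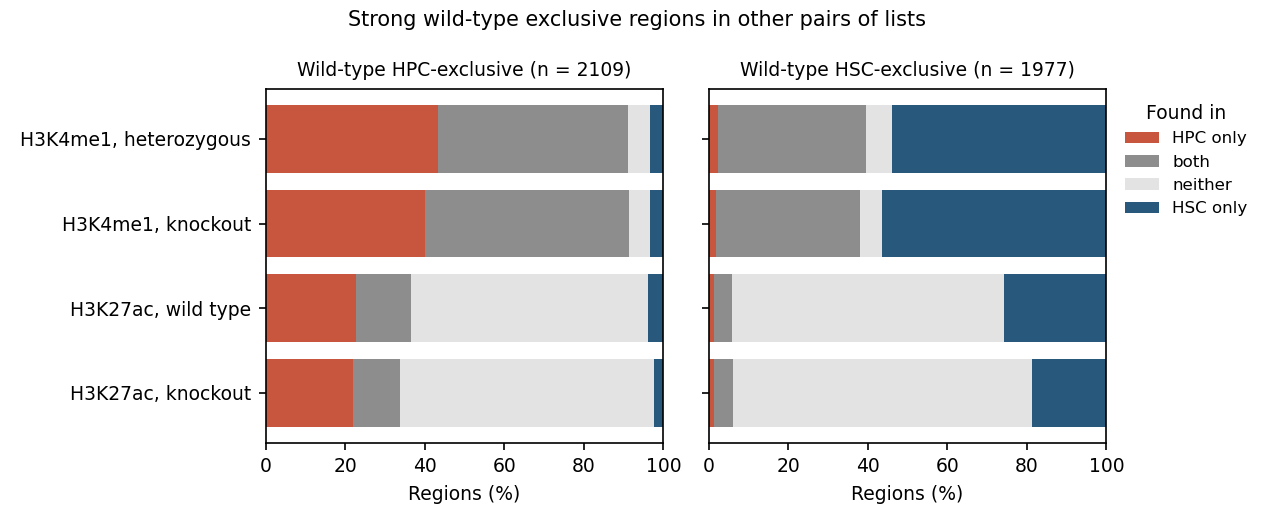
Share of wild-type HPC-exclusive regions (left, n = 2109) and HSC-exclusive regions (right, n = 1977) found in HPC only (red), both (grey), neither (pale) or HSC only (blue) in 4 other pairs of lists (rows); the x axis is in percent. In the H3K4me1 rows red outweighs blue on the left (43.2% and 3.37% in heterozygous lists) and blue outweighs red on the right (53.8% HSC only, 2.33% HPC only).

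The exclusive regions of the cell types lay in different places. HPC-exclusive regions were within 1 kb of an annotated start in 11.4% of cases (interval 10.1% to 12.9%) and HSC-exclusive regions in 4.50% (3.67% to 5.51%), with shared strong regions at 15.3% in HPC and 13.1% in HSC. Regions inside genes and further than 1 kb from a start or transcript end made up 42.6% of HPC-exclusive and 64.8% of HSC-exclusive regions. Those between genes made up 42.8% of HPC-exclusive and 28.4% of HSC-exclusive regions. Among core regions the share near a start was alike, 3.99% for HPC and 3.69% for HSC, while 47.5% of HPC core and 68.0% of HSC core regions lay inside a gene. Away from starts, H3K27ac of HPC touched 33.2% and that of HSC 13.0% of HPC-exclusive regions, and H3K27ac of HPC touched 4.82% and that of HSC 29.8% of HSC-exclusive ones. Near starts the marks parted less: H3K27ac of HPC touched 61.0% and that of HSC 52.7% of HPC-exclusive regions. Cut to equal covered bases, the shares near a start were 10.7% of HPC-exclusive and 7.61% of HSC-exclusive regions, so the gap narrowed in the same direction.

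The strongest HPC core region lay inside Galm (galactose mutarotase) at chr17:80137810-80139473, with a −log10 p of 32.9 and H3K27ac in HPC only. The next 4 lay nearest A430005L14Rik, in Atp8b4 (of the lipid flippase family), near Nid1 (a basement membrane protein) and in Hecw2 (a ubiquitin ligase). That near A430005L14Rik was 226928 bases from the gene. The strongest HSC core region lay inside Rcbtb2 at chr14:73161773-73162296, with a −log10 p of 27.2, and had no H3K27ac peak in either list. The next 4 lay in Slc18a2 (the vesicular monoamine transporter), Marchf2 (a ubiquitin ligase), Smtnl1 and Ccdc91. All 5 of these HSC core regions were present in the 16-week HSC list, and none of the 5 HPC core regions was.

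Several HSC core regions lay together in long genes, some of them listed stem cell regulators. Prdm16 (321 kb long) held 7 in its body and 9 within 50 kb, Mecom (558 kb) 7, Tgfbr3 (183 kb) 6, and Mllt3 (263 kb) 5, and none of these genes had an HPC core region within 50 kb. Tgfbr3 is not in the lists, and other genes outside them also held several, though fewer than Prdm16 or Mecom. Exoc6b and Utrn held 5 each, Prorp, Shroom3, Syn3 and Tbxas1 4 each, and Shisa9 had 6 within 50 kb. Counts were not set against gene length. Slamf1 (34.1 kb) held 3, between 1.21 and 8.04 kb downstream of its start. The highest counts per gene were lower for HPC core regions, which were also fewer (577 against 785). Akap6 and Paqr5 held 3 each, and within 50 kb Runx3, Emb, BC049352 and Snx9 had 4 each, Fcnb 3, and Flt3, Ebf1, Satb1 and Btla 2 each. By nearest gene, the 577 HPC core regions fell to 490 genes and the 785 HSC core regions to 634. The 2 core regions of Flt3 lay 1.54 to 3.61 kb and 26.8 to 27.1 kb downstream of its start, both with H3K27ac in HPC only. The 2 of Satb1 lay 48.0 to 49.0 kb and 55.0 to 56.9 kb into the gene.

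**Figure D3:**
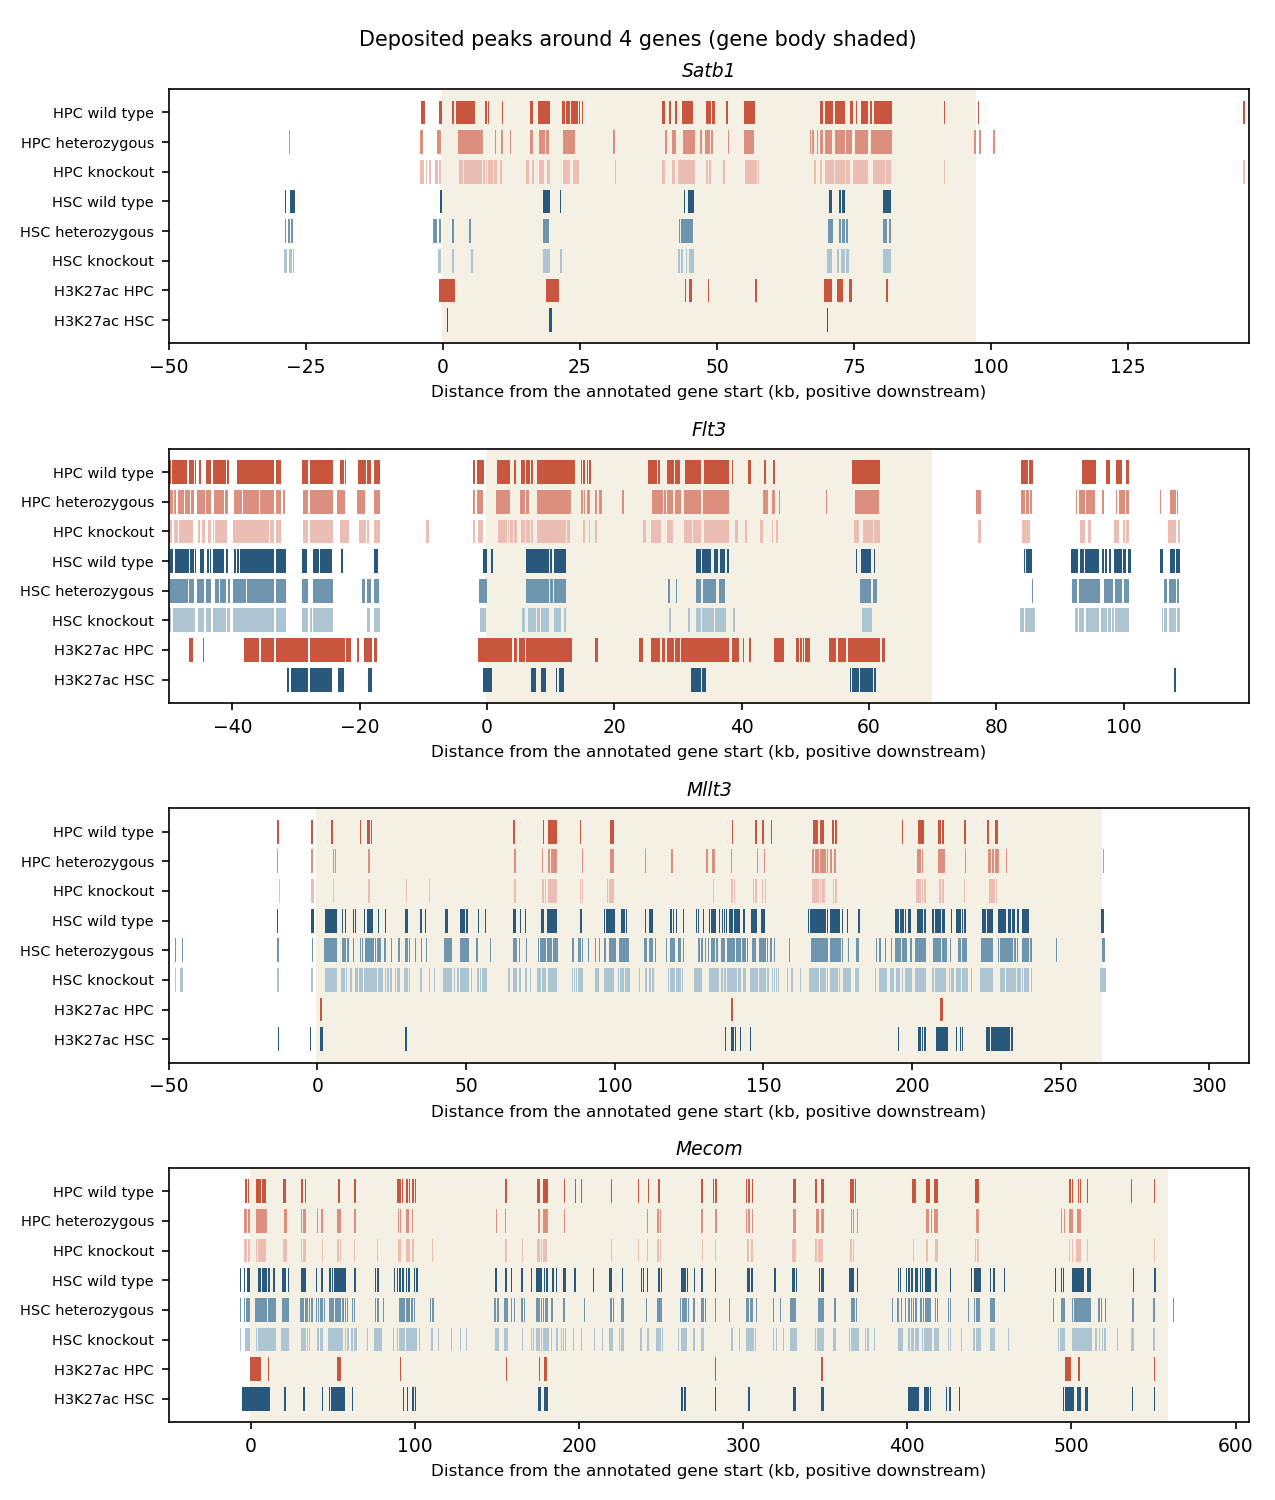
Deposited peaks around Satb1, Flt3, Mllt3 and Mecom by distance from the annotated start (x axis, kb); each row is 1 list, H3K4me1 of HPC in 3 genotypes above HSC in 3 genotypes, then wild-type H3K27ac of HPC above HSC, and the gene body is shaded. Within the genes the wild-type HPC list has 32 peaks in Satb1, 22 in Flt3, 33 in Mllt3 and 72 in Mecom, against 11, 15, 108 and 164 in the HSC list.

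For genes, the bases covered by peaks from 50 kb below to 50 kb above each gene were summed per list. Each gene's HPC sum was divided by its HSC sum, with 1000 bases put on each side, and the log2 was taken. There were 17007 measured genes, those reaching 1000 bases in HPC or in HSC, and their median of 0.25 was taken off every gene. This relative log2 ratio is used below, and more or less covered means a distance of 1.5-fold or greater from the median gene. In wild type 1673 genes were more covered in HPC (9.84%) and 1556 less (9.15%). The counts called in each gene list below stand against these 2 shares. Of the genes more covered in wild type, 58.8% were more and 0.60% less covered in heterozygous mice, and 55.5% and 1.67% in knockout mice. Of those less covered, 0.64% were more and 60.8% less covered in heterozygous mice, and 0.06% and 61.9% in knockout mice. In all 3 genotypes 789 genes were more covered (4.64%) and 750 less (4.41%). Genes more covered for H3K4me1 lay above the median gene for H3K27ac in 73.5% of 1356 cases, genes less covered in 11.1% of 1221, and the remaining genes in 51.9% of 12759. Neighbouring genes share windows, so these counts are not counts of separate loci.

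**Figure D4:**
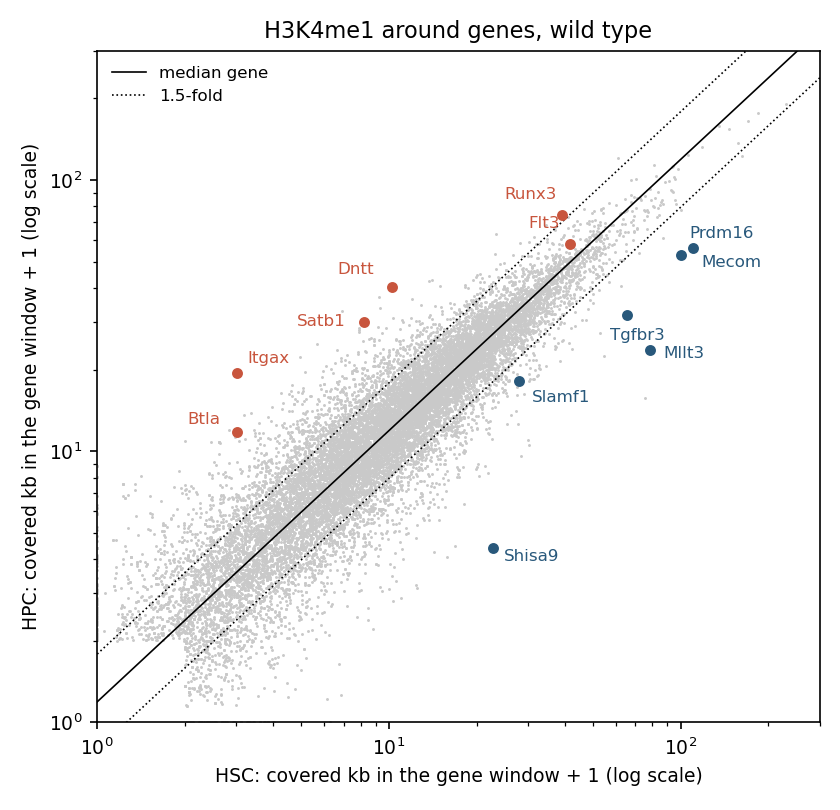
Covered kb plus 1 around each of 17007 genes in wild-type HPC (y axis, log scale) against wild-type HSC (x axis, log scale); each grey point is a gene, the solid line is the median gene and the dotted lines are 1.5-fold from it. Itgax, Btla, Satb1 and Dntt (red) lie above the upper dotted line and Shisa9, Mllt3 and Mecom (blue) below the lower one, while Flt3 lies within them.

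Most listed stem cell regulators had a ratio of HPC to HSC below that of the median gene. Before the median gene was taken off, the median log2 of the list was −0.06, so its covered bases were about equal in the 2 lists. Of 27 listed stem cell regulators 26 were measured, of which 3 lay above and 23 below the median gene, with a median relative log2 ratio of −0.31 (0 over all genes). None was called more and 7 of 26 were called less covered, against 9.84% of all measured genes called more and 9.15% called less, and 6 of the 7 were less covered in all 3 genotypes. For H3K27ac 10 of 24 measured members lay above the median gene (median −0.12). Mllt3, a chromatin reader that maintains human HSCs in culture, had 22690 covered bases in HPC and 77826 in HSC of wild type (−1.99). In heterozygous mice Mllt3 had 25070 in HPC and 107387 in HSC (−2.02), and in knockout mice 26773 in HPC and 132825 in HSC (−2.13). Every HSC list was thus above every HPC list at this gene. These are 1 pooled list per genotype, not replicates, and how many genes separate in this way was not counted. Of all measured genes, 4.41% were less covered in all 3 genotypes. H3K27ac around Mllt3 covered 2435 bases in HPC and 21449 in HSC. Mecom, which encodes the factor EVI1 and is needed for HSC self-renewal, had 55083 bases in HPC and 109139 in HSC (−1.23), with H3K27ac over 20040 bases in HPC and 63766 in HSC. Prdm16, a related regulator, had 51881 bases in HPC and 99389 in HSC (−1.18).
Meis1 (−0.62), Tal1 (−0.72) and Nfib (−0.84) were also called less covered. Several stem cell factors were not called. Hlf, a marker of HSCs, had 41994 bases in HPC and 41665 in HSC (−0.24), Gata2 16881 in HPC and 17769 in HSC (−0.32), and Runx1 108993 in HPC and 96922 in HSC (−0.09). For H3K27ac, Hlf had 22908 bases in HPC and 8380 in HSC and Runx1 56421 in HPC and 22263 in HSC, opposite to Mecom.

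Surface proteins of HSCs and their niche signals lay mostly below the median gene too, with 7 of 26 above it and a median of −0.33. In wild type 1 was called more (Alcam, 0.62) and 9 less covered, 7 of them in all 3 genotypes. Tek, the angiopoietin receptor TIE2, had 1874 bases in HPC and 9993 in HSC in wild type (−2.19), 2308 in HPC and 9566 in HSC in heterozygous, and 1503 in HPC and 10414 in HSC in knockout mice. Each HPC list was below each HSC list, again with 1 pooled list per genotype. Fgd5, a gene used to mark HSCs by reporter, had 16217 bases in HPC and 26463 in HSC (−0.93), and Slamf1, which encodes CD150, 17130 in HPC and 26990 in HSC (−0.88). Kit, the stem cell factor receptor of both populations, had 41869 in HPC and 44247 in HSC (−0.33), and Procr, the protein C receptor, 17865 in HPC and 16037 in HSC (−0.11), so neither was called.

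Surface proteins of multipotent progenitors ran the other way, with 13 of 15 members above the median gene, 5 called more and none less covered, all 5 in all 3 genotypes, and a median of 0.44. All 15 members lay above the median gene for H3K27ac. Il7r, the interleukin 7 receptor, had 7434 bases in HPC and 908 in HSC (1.89), with 7133 in HPC and 1996 in HSC of heterozygous and 9057 in HPC and 1532 in HSC of knockout mice. Cd48, which HSCs lack and progenitors carry on their surface, had 17323 in HPC and 7981 in HSC (0.78). Emb, the adhesion protein embigin, had 39162 in HPC and 17712 in HSC (0.85), and Ccr9, a thymus homing receptor, 13035 in HPC and 4436 in HSC (1.12). Flt3, the cytokine receptor of lymphoid-primed progenitors, reached only 0.22 over its whole window, with 57002 bases in HPC and 40790 in HSC. Inside the gene Flt3 had 27119 bases in HPC and 11476 in HSC, and its window had 58022 bases of H3K27ac in HPC and 18163 in HSC. Csf3r, the G-CSF receptor, had 12179 in HPC and 6633 in HSC (0.54), and Csf1r, the M-CSF receptor, 24576 in HPC and 20853 in HSC (−0.03).

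Early lymphoid genes held some of the highest ratios. Of 26 members 19 lay above the median gene, with a median of 0.18. In wild type 4 were called more, all 4 in every genotype, and 1 less covered (Foxo1, −0.66). Over all measured genes 9.84% were called more and 9.15% less in wild type, and 4.64% more in all 3 genotypes. Dntt had 39442 bases in HPC and 9233 in HSC in wild type (1.73), 37402 in HPC and 12145 in HSC in heterozygous, and 39535 in HPC and 12214 in HSC in knockout mice. All 3 HPC lists exceeded all 3 HSC lists, with 1 pooled list per genotype, and H3K27ac covered 19396 bases in HPC and 2441 in HSC. Within 50 kb of Dntt lay 2 HPC core regions and 1 HSC core region, the latter 1.52 to 1.92 kb downstream of its start. Blnk, a B cell receptor adaptor with 36104 bases in HPC and 8282 in HSC (1.75), shares much of the Dntt window, as does Opalin (1.99), so these are 1 locus. Satb1, a chromatin organiser that promotes lymphoid fate, had 29097 in HPC and 7197 in HSC (1.62; 1.67 in heterozygous and 1.81 in knockout mice). Ebf1, the B lineage factor, had 14611 in HPC and 7499 in HSC (0.62), although H3K27ac covered only 842 bases in HPC and 353 in HSC. Markers of mature lymphocytes (B, T and NK cells), which the sorts should not hold, lay above the median gene for 12 of 14 measured (4 called more, 1 of them in all 3 genotypes, none less, median 0.33), led by Ms4a1, the B cell antigen CD20, with 3073 bases in HPC and no peak in HSC. The summed window of these markers was 215690 bases in HPC and 138730 in HSC, and for H3K27ac their median was 0.11. Whether such cells were present in the sorts was not tested.

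Myeloid genes were higher at their effectors than at their regulators. Granulocyte and monocyte effectors had 22 of 27 measured members above the median gene, 10 called more, 9 of them in all 3 genotypes, and 1 less covered (Clec7a, the receptor dectin-1, −0.83, and 0.16 with a window of 10 kb), and a median of 0.40. Itgam, the integrin CD11b, had 33303 bases in HPC and 13426 in HSC (1.00), Cx3cr1, the fractalkine receptor of monocytes, 15035 in HPC and 3637 in HSC (1.54), and Fcnb, a myeloid ficolin, 6443 in HPC and 1101 in HSC (1.57). The window of Itgam overlaps that of its neighbour Itgax, a dendritic cell gene described below, so these are not separate loci. Itgam had 1 HPC core region in its window and 0 in its body. Ctsg, the granule protease cathepsin G, and its neighbour Mcpt8 shared 3416 bases in HPC and no peak in HSC. Mpo, myeloperoxidase, had 25977 in HPC and 14276 in HSC (0.57; 0.93 in heterozygous and 1.05 in knockout mice), and Elane, neutrophil elastase, 42408 in HPC and 32757 in HSC (0.11). The 18 myeloid regulators had 13 above the median gene, 5 called more, 4 of them in all 3 genotypes, and 2 less covered in wild type (among them Zeb2, −0.88), and a median of 0.19 (−0.01 with a window of 10 kb). For H3K27ac 9 of the 18 regulators lay above the median gene (median −0.01), and 15 of 24 measured effectors did (median 0.20). Irf8, which directs monocyte and dendritic fates, had 42432 in HPC and 19808 in HSC (0.81; 1.21 in heterozygous and 1.32 in knockout mice). Cebpa, the factor that opens the granulocyte and monocyte path, had 32612 in HPC and 17689 in HSC (0.59), and counted by peak summits it lay at −0.06. H3K27ac around Cebpa went the other way, with 6166 bases in HPC and 7748 in HSC (−0.42). Runx3 had 73090 in HPC and 38346 in HSC (0.66). Spi1, encoding PU.1, had 33267 in HPC and 27737 in HSC (0.00), and Cebpe 19165 in HPC and 19248 in HSC (−0.26). Gfi1, with 1 of its 2 starts in the HSC lists only, had 31897 in HPC and 19798 in HSC over its window (0.41).

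Dendritic cell genes had 8 of 12 above the median gene, 3 called more in every genotype and none less covered (median 0.39), and Itgax had the highest ratio among genes that reached 10000 bases in HPC or HSC. It had 18384 bases in HPC and 2008 in HSC in wild type (2.44), 19048 in HPC and 3830 in HSC in heterozygous, and 21454 in HPC and 2682 in HSC in knockout mice. H3K27ac covered 8776 bases around Itgax in HPC and had no peak in HSC. Siglech, a receptor of plasmacytoid dendritic cells, had 3674 in HPC and 910 in HSC (1.04). Antigen presentation genes lay above the median gene for 15 of 17 members, with 2 called more (Tapbp, 0.68, and Ciita, 0.61) and none less, and a median of 0.38. The 2 of 17 are close to the 9.84% of all genes, and neither was called in heterozygous or knockout mice. For H3K27ac 16 of these 17 lay above the median gene. Many members are neighbours on chromosome 17 and share windows, so neither count is a count of separate loci. The 11 measured basophil, mast cell and eosinophil genes had 8 above, 4 called more and 2 less (median 0.27), led by Gzmb with 5923 bases in HPC and 279 in HSC (2.18).

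Megakaryocyte and platelet genes lay mostly below the median gene, as the stem cell lists did. Of 18 members 4 lay above the median gene, none was called more and 5 were called less covered, against 9.15% of all genes. The median of −0.40 was the lowest of the 20 lists in wild type. It was −0.27 in heterozygous and −0.19 in knockout mice, where genes silent in blood were lowest (−0.37 and −0.49). Summed over the members, the windows held 349280 bases in HPC and 356638 in HSC of wild type. Rab27b, a GTPase of platelet granule release, had 2122 bases in HPC and 11482 in HSC in wild type (−2.25), 3130 in HPC and 15152 in HSC in heterozygous, and 2947 in HPC and 12478 in HSC in knockout mice. It was the only member less covered in all 3 genotypes by 1.5-fold. Thbs1 (thrombospondin, −0.77), F2r (a thrombin receptor, −0.76), F2rl2 (−0.70) and Gp6 (the platelet collagen receptor, −0.59) were the others, and Gp6 had 0.73 in heterozygous and 0.54 in knockout mice, the opposite sign. Erythroid genes had 6 of 17 above, 1 called more and 3 less, none of them in all 3 genotypes, and a median of −0.07. Klf1, the erythroid master factor, had 15273 in HPC and 11456 in HSC (0.13), and Gata1 stayed under 1000 bases in both lists and was not measured.

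**Figure D5:**
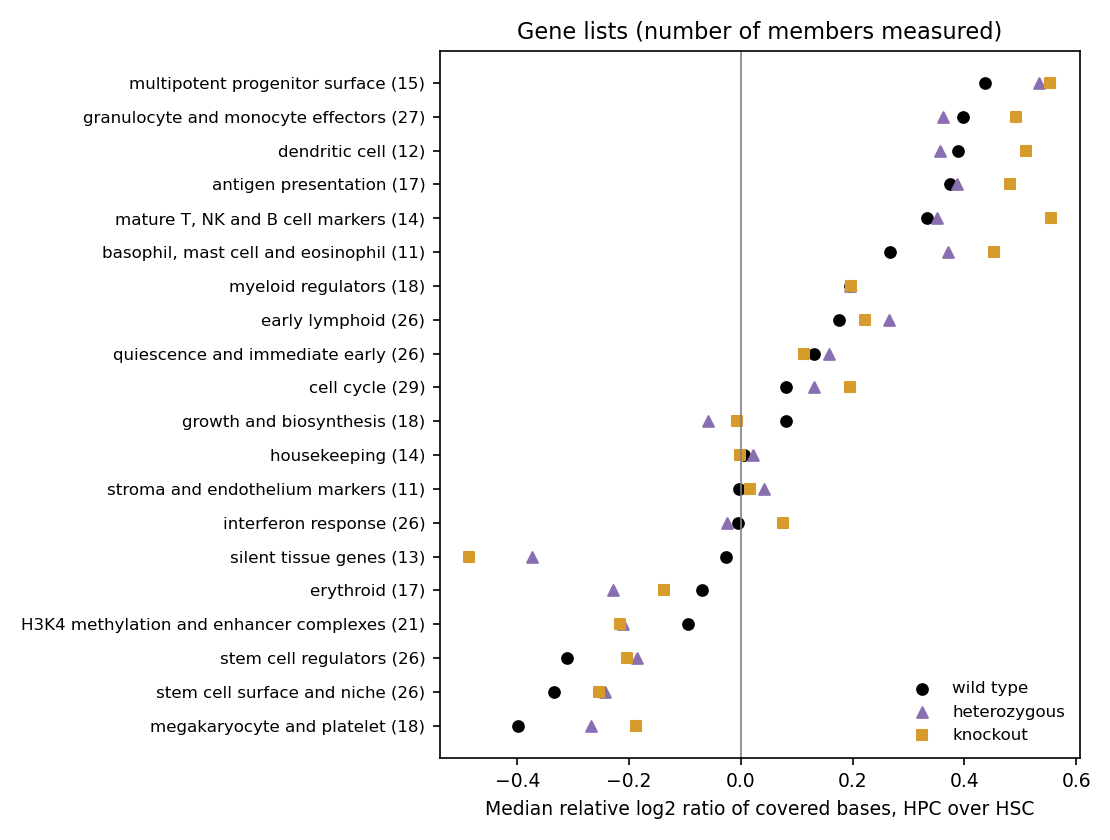
Median relative log2 ratio of covered bases, HPC over HSC (x axis), for 20 gene lists (rows, with the number of members measured in wild type); circles are wild type, triangles heterozygous and squares knockout. Multipotent progenitor surface genes lie highest in wild type (0.44) and megakaryocyte and platelet genes lowest (−0.40), and the lists of stem cell regulators and stem cell surface genes are below 0 in all 3 genotypes.

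The lists of cell division and dormancy genes had medians near the median gene, though most members of each lay above it. Of 29 cell cycle genes 18 lay above the median gene, with a median of 0.08. In wild type 4 were called more, 2 of them in all 3 genotypes, and 2 less covered. The shares over all genes were 9.84% more and 9.15% less. Cdk6, the G1 kinase that sets how readily HSCs leave dormancy, had 57844 bases in HPC and 27216 in HSC in wild type (0.81), 65173 in HPC and 35635 in HSC in heterozygous, and 66580 in HPC and 41660 in HSC in knockout mice, and its H3K27ac covered 30962 bases in HPC and 15221 in HSC. Aurka, a mitotic kinase, had 18018 in HPC and 7787 in HSC (0.86). Among 26 quiescence and immediate early genes 19 lay above, 2 were called more (Rgs2, 0.95, and Fos, 0.72) and 1 less (Klf9, −1.01), with a median of 0.13. Cdkn1a, encoding p21, had 33865 in HPC and 21131 in HSC (0.40), and Cdkn1c, encoding p57, 13789 in HPC and 13997 in HSC (−0.27). Growth and biosynthesis genes had 11 of 18 above and 1 called more (Ncl, 0.93; median 0.08), and Myc had 2779 in HPC and 1567 in HSC (0.31).
The interferon response list had 13 of 26 above and 1 called less (median −0.01). Genes of H3K4 methylation and enhancer complexes had 6 of 21 above, none called more and 4 less, 3 of them in all 3 genotypes (median −0.09). These were Kmt2a (−0.85), Kdm1a (−0.84), Kmt2c (−0.76) and Paxip1 (−0.67). Kmt2c, the gene deleted in this series, had 6748 bases in HPC and 10024 in HSC in wild type, and 5677 in HPC and 19183 in HSC in heterozygous mice. In knockout mice it had 8817 in HPC and 24742 in HSC, so covered bases do not read out the deletion.
Housekeeping genes had 7 of 14 above and none called (median 0.00), stroma and endothelium markers 5 of 11 above, 1 called more and 1 less (median −0.003), and genes silent in blood 5 of 13 above, 1 called more and 3 less (median −0.03). The last list reached −0.37 in heterozygous and −0.49 in knockout mice.

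Genes were ranked for extremes only if they reached 10000 covered bases in HPC or in HSC. Beyond the lists, the most extreme of these with more H3K4me1 in HPC included Zap70, a T cell receptor kinase (12890 bases in HPC and 2360 in HSC, 1.79). Btla, an inhibitory receptor of lymphocytes (10779 in HPC and 2015 in HSC, 1.71), and Cd300c, an activating receptor of myeloid cells (23914 in HPC and 4673 in HSC, 1.88), were others. Itgad (1.91) shares its window with Itgax, and C2cd4d (1.84) and Them5 (1.82) are neighbours on chromosome 3. At the other end stood Shisa9 (3389 in HPC and 21775 in HSC, −2.63), the lowest of those ranked, and Cep135 (3062 in HPC and 14764 in HSC, −2.21), a centriole gene. Lhcgr, the luteinising hormone receptor, had 2223 in HPC and 11387 in HSC (−2.20). Rnf217 had 3242 in HPC and 13239 in HSC. Mtss2 (−2.16), Thsd4 (−1.81) and Plxdc2 (−1.77) were among the 10, as were Rab27b and Mllt3. All 20 genes at the 2 ends kept their sign in heterozygous and knockout mice.

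In wild type 1139 windows were covered over at least 150 bases in HPC only and 373 in HSC only, 1083 in both and 18450 in neither. Of the windows in HPC only, 24.8% were in HPC only and 10.4% in HSC only in heterozygous mice, and 18.4% and 12.8% in knockout mice. Of those in HSC only, 11.5% were in HPC only and 31.9% in HSC only in heterozygous mice, and 5.90% and 36.2% in knockout mice. Windows restricted to the same cell type in all 3 genotypes were poor in CpG, with a median of 4 CpG in the HPC set and 5 in the HSC set, against 6 in windows covered in both cell types and 13 over all windows.
The motifs searched on both strands were GAGGAAG (PU.1), CCGGAA (ETS), TGTGGTT (RUNX), AGATAA (bound by GATA factors), TTGCNNAA (C/EBP), TGANTCA (AP-1), GAAANNGAAA (interferon regulatory factors), TTGGCA (nuclear factor I), CAGATG (TAL1 E-box), CAGCTG (E-protein E-box) and TGACAG (MEIS), and their matches may overlap. The GATA letters occurred in 10.0% of windows in HPC only (interval 8.40% to 11.9%), in 16.9% in HSC only (13.4% to 21.0%) and in 9.68% of all 21045 windows. In the windows restricted in all 3 genotypes they occurred in 13 of 47 of the HPC set (27.7%, 16.9% to 41.8%) and in 14 of 37 of the HSC set (37.8%, 24.1% to 53.9%). The ETS letters occurred in 13.5% in HPC only, 9.38% in HSC only and 18.9% of all windows. The PU.1 letters occurred in 14.7% in HPC only and 14.5% in HSC only, and in 13.3% of all windows. Base composition differs between these sets and was not matched. In the printed windows, Dntt holds a GATA and a MEIS match, Igll1 a RUNX match and both E-boxes, and Lck a nuclear factor I match. Itgax holds a GATA, an AP-1, a nuclear factor I and an E-protein match, and the inner start of Lef1 a GATA and a MEIS match. Epor holds a GATA match, a TAL1 E-box and 3 E-protein E-boxes, and Gfi1 an ETS match.

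Of 30 microRNA genes listed for blood cells 25 had a RefSeq hairpin position and were counted, and 1 was more and 1 less covered in HPC. Over all measured protein-coding genes 9.84% were more and 9.15% less covered, so neither count exceeded that share. No minimum of covered bases was set for the microRNA genes. Mir181a-1, which favours lymphoid development, had 7919 covered bases within 50 kb in HPC and 821 in HSC in wild type (2.04), 5902 in HPC and 2840 in HSC in heterozygous, and 5386 in HPC and 1283 in HSC in knockout mice. All 3 HPC lists exceeded all 3 HSC lists, which are 1 pooled list per genotype and not replicates. None of the peaks lay within 10 kb of the hairpin. Its mature 5p strand is shown because its gene was the only one called more covered, with the seed (bases 2 to 8) in capitals, from RefSeq GRCm38.p6, chromosome 1, plus strand.
mmu-miR-181a-5p: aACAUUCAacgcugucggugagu
Mir181a-2 encodes the same 5p strand, and its ratio of 0.38 in wild type changed sign in the other genotypes (−0.40 in f/+ mice with Vav-Cre, −0.63 in knockout mice).
Mir99a had 464 bases in HPC and 1811 in HSC (−1.19) but 918 in HPC and 624 in HSC of heterozygous mice (0.27).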

How the data were processed

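H3K4me1 and H3K27ac peaks were called by the authors with MACS2 after alignment with Novoalign on mm10 (GRCm38), per the submitters' processing notes. Tool versions and the filter applied to the lists were not given in the sources used here. Columns read were positions, fold enrichment (a linear ratio) and the −log10 p and −log10 q values of the deposited peaks, which served only to rank or filter peaks within a list. Each group had 1 pooled list, so libraries cannot be compared, no test was made, and whether libraries came from separate mice is not stated. Depth is unknown.

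Peaks of a list did not overlap. Strong peaks were the top 25% by −log10 p. Gene windows, gene positions, promoter windows and microRNAs came from RefSeq GRCm38.p6, which gave promoter windows for 17274 of 21631 protein-coding genes. With no genome sequence used here, motifs were searched in promoter windows in place of peak summits. The 20 gene lists held 407 symbols, of which 404 matched. The gene code was checked on simulated lists. The named genes were those nearest the 5 strongest core regions per direction, up to 3 list members per direction past 1.5-fold, fixed reference genes and the 10 most extreme genes per direction. These 10 came from genes with at least 10000 covered bases in HPC or HSC. Other list members named, such as Prdm16, Slamf1, Cd48, Runx3 and Itgam, were chosen after their values were seen. Some genes that the rule names are not reported here. The printed promoters and miRNA, the clustered core regions and the 16-week and knockout H3K27ac comparisons were chosen after values were seen. The members and lists were chosen with earlier results of these data known. Python 3.11.15 with pandas 2.3.3 and NumPy 2.4.6 was used.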

Additional observations from a re-analysis of the deposited data

How the results depend on the processing

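No paired analysis was possible because each group has 1 pooled list without values for its libraries; for the same reason no library could be left out. The share of exclusive regions in HPC (51.6%) was 57.2% with equal numbers of peaks, 19.6% with equal covered bases, 54.2% at a −log10 q of at least 2, 78.4% at a −log10 q of at least 5 (chosen after seeing the data), 49.8% with an overlap of at least 50% of the shorter peak and 49.3% with strength by fold enrichment. In the order of the first 4 of these settings, the share of covered bases in both lists (49.8%) was 49.5%, 49.6%, 49.7% and 46.9%. Of exclusive regions found in 1 list only in both other genotypes, the share in the same cell type (98.8%) was 97.2% at a −log10 q of at least 5, 97.9% with 50% overlap and 99.5% for the top 10%. Of those acetylated in 1 list only, the share in the same cell type (90.6%) was 92.4% with equal numbers, 87.1% at a −log10 q of at least 5, 88.5% with 50% overlap and 94.9% for the top 10%. Of all exclusive regions near a start, the part from HPC (73.0%) was 78.8% with equal numbers, 25.6% with equal bases and 87.4% at a −log10 q of at least 5. Adding 5000 bases left 589 genes more and 484 less covered. Of 11 motifs, 5 were more frequent in HPC-only than HSC-only windows, and 2 with equal covered bases. Counts of gene lists with a median above 0 (12) ranged from 8 to 13. Of the named genes, with a 10 kb window Clec7a came to 0.16 and Egr2 to −0.044, each with its sign turned round. By peak summits Cebpa came to −0.057 and Smtnl1 to 0.078, again with the sign turned round. No other gene named by the rule and past 1.5-fold changed sign, and no gene list with a median beyond 0.2 did. Genes named outside the rule were not followed through these settings. Among them were Prdm16, Slamf1, Cd48, Runx3, Itgam, Tal1, Nfib, F2rl2, Gp6 and Paxip1. Of the lists with a median beyond 0.2, however, 4 fell short of 0.2 by peak summits, 1 with 5000 added bases and 1 with a window of 10 kb. Over all settings, genes named by the rule fell short of 1.5-fold 96 times and newly passed it 12 times, against 736 times without such a change. Of the genes called, a window of 10 kb kept 48.8% of those more and 55.5% of those less covered. The cause was not tested. Wide windows mix neighbouring genes, and without depth a missing peak is not an absent mark.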
